A study of Mus musculus with 4 samples.

Results

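MT1G-high macrophages are tumor macrophages that carry transcripts of the metallothionein genes MT1G and MT1H. They were studied among sorted human CD45+ cells of MDA-MB-231 tumors grown in humanized mice. The members were chosen on measured counts, namely at least 4 UMIs (unique molecular identifiers, 1 per captured transcript) of MT1G and MT1H together. They also needed at least 5 UMIs over CD68, MSR1, CD163, C1QA, C1QB and C1QC, at most 3 over the hypoxia genes SLC2A1, HILPDA and ADM, at most 2 over the cell cycle genes TOP2A and MKI67, at most 1 over the T cell genes CD3D, CD3G and TRAC, and at most 2 over the keratins KRT18 and KRT19. The rule found 608 cells of 16327 kept cells, 223 in reaction 1 and 385 in reaction 2. The comparison set was the 5448 macrophages that met every other limit but had at most 3 UMIs of MT1G and MT1H, here called MT-low macrophages. Together they formed 6056 gated macrophages.

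The cells came from MISTRG mice, a strain that expresses human myeloid growth factors and had been engrafted with human CD34+ stem cells. MDA-MB-231, a human breast carcinoma line, was injected into the mammary fat pad. A set of 7 mice received maraviroc, a small-molecule drug, at 300 mg/l in the drinking water for 10 days from day 21, and 7 mice were left untreated. Tumors were taken on day 31, and the age of the mice is not given in the sources used here. Each mouse's cells carried a hashtag antibody and were pooled into 2 droplet reactions, with 4 untreated and 3 maraviroc-treated mice in reaction 1 and the others in reaction 2. Sorted human CD45+ cells were sequenced and counted on human genes only, so mouse stromal and immune cells were not measured. The human immune system of this model develops in a mouse host. Each treatment was read from the name of its hashtag among the deposited features. Mice are numbered 1 to 7 within a treatment, and untreated 1 to 4 and maraviroc 1 to 3 were in reaction 1.

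Reaction 1 held 29120 barcodes and 133089612 UMIs, and reaction 2 held 13582 barcodes and 175447534 UMIs. Kept cells had above 600 and at most 6000 detected genes, a mitochondrial share under the limit of the study and at least 60% of their hashtag UMIs on a single hashtag. Of the barcodes within the gene and mitochondrial limits, 7361 of 27645 in reaction 1 and 8966 of 10161 in reaction 2 also met the hashtag limit. MT1G-high macrophages had a median of 13503 UMIs per cell, and MT-low macrophages 10333.5. In reaction 1 the members had a median of 8980 UMIs and in reaction 2 of 14880. The members summed over a mouse gave 155175 UMIs in maraviroc 1, the lowest, and 1925005 in maraviroc 6, the highest. The reactions shared 32 barcode sequences among kept cells, and no sequence was shared between members of both reactions.

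Metallothioneins are small cysteine-rich proteins that bind zinc and copper. Their genes are switched on by the zinc-sensing factor MTF1, and also by glucocorticoids and oxidants, and they lie side by side as a family of near-identical copies. Zinc enters the cytosol through SLC39 transporters such as ZIP8 (SLC39A8) and leaves it through SLC30 transporters such as ZnT1 (SLC30A1), itself an MTF1 target. The cystine importer SLC7A11 and the glutamate-cysteine ligase subunit GCLM, which feed glutathione synthesis, and heme oxygenase 1 (HMOX1) are targets of the oxidant-sensing factor NRF2. Fibronectin (FN1) is a matrix protein that monocytes and macrophages can make. These facts are background and not results of these data.

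MT2A, MT1X, MT1M, MT1E and MT1F were higher in MT1G-high than in MT-low macrophages in every mouse. Levels are given in CPM, that is UMIs out of 1000000 UMIs summed over the cells of a mouse. MT2A (ENSG00000125148), the most widely expressed human metallothionein, ranged over the 14 mice from 1404 to 3205 CPM in MT1G-high macrophages, with a median of 2054, and from 128 to 586 CPM in MT-low macrophages, with a median of 306. The ranges did not overlap, and the median of the 14 within-mouse log2 ratios was 2.70 (lowest 2.19, highest 3.41). Ratios were taken on CPM + 5 and thus understate differences of low genes. Members were picked on genes of the same cells, so all ratios to MT-low macrophages are descriptions without a test.

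MT1X, another broadly induced member of the family, was at 477 to 957 CPM in MT1G-high macrophages and at 54.7 to 121 in MT-low macrophages, a median log2 ratio of 2.97. MT1M was at 86.7 to 286 CPM against 2.24 to 10.2, a median log2 ratio of 4.10. For both genes the sets were again apart in all 14 mice. MT1E, at 106 to 358 against 20.02 to 68.5 CPM, had a median log2 ratio of 2.40. MT1F, at 148 to 302 against 22.3 to 46.5 CPM, had a median log2 ratio of 2.26. MT1A was scarce, with 122 UMIs in 38 of the 608 members, 65.6% of them in 10 cells. It was listed at 0 in the members of 3 mice (untreated 3, maraviroc 2 and maraviroc 3) and was higher in the members in 11 of 14 mice. The genes of the rule, for comparison, had median log2 ratios of 5.95 (MT1G, ENSG00000125144) and 6.34 (MT1H), which describe the choice of cells. Reads of these near-identical copies may have been split or lost between them in counting, so the share of each copy is uncertain.

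**Figure D1:**
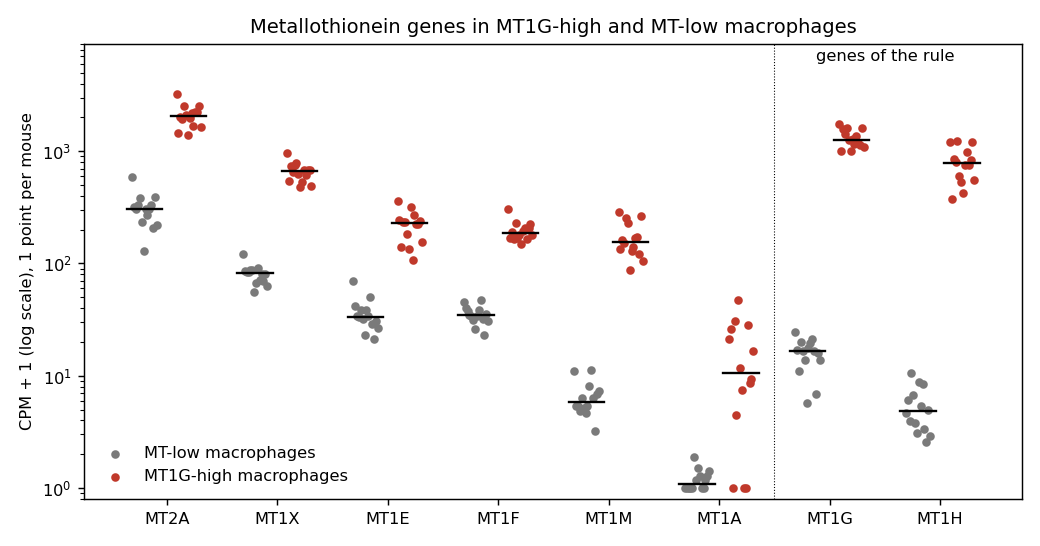
CPM + 1 on a log scale for 8 metallothionein genes, 1 point per mouse (14 mice) in MT-low (grey) and MT1G-high macrophages (red), with the median as a bar. MT2A, MT1X, MT1E, MT1F and MT1M do not overlap between the sets, MT1A is at 0 in the members of 3 mice, and MT1G and MT1H to the right of the dotted line chose the cells.

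Across the 6687 genes outside the rule with a mean of at least 20 CPM in either set, the median log2 ratio was -0.04. Only MT1M, MT1X, MT2A, MT1E and MT1F were higher in every mouse and at least 2-fold higher in the median mouse, which is 0.0748% of these genes. Of these, MT1M averaged 171 CPM in the members and 5.51 in MT-low macrophages. It passed the limit on level through the members only, the set where it was high. In the other direction 6 genes (0.0897%) met the same limits. These were ALPK3, SELENOP, AUTS2, ANK2, ST5 and NFATC2. ALPK3, AUTS2, ANK2 and ST5 averaged under 20 CPM in the members and passed the limit on level through MT-low macrophages only, the set where they were high. Without the 2-fold limit, 17 genes were higher and 58 lower in every mouse. In at least 12 of 14 mice, 224 genes (3.35%) were higher and 559 (8.36%) lower, and these shares are the background for the counts of the lists below.

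MT2A was higher in cells with 1 to 3 MT1G and MT1H UMIs than in those with none, and highest in those with 40 or more. Pooled MT2A was at 247 CPM in the 4698 gated macrophages with no MT1G or MT1H UMI, 428 in the 521 with 1, 710 in the 155 with 2 and 1049 in the 74 with 3. Just inside the limit, the 44 cells with 4 UMIs had 729 CPM of MT2A, and the 137 cells with 40 or more had 4385. The cells just outside the limit were thus no lower in MT2A than those just inside it, and the limit cuts a continuous range. Median depth was 10200 UMIs in the cells with none and 17417 in those with 40 or more, and the part of depth in this course was not tested. Within the 608 members, MT1G and MT1H took from 1.20 to 280 of every 10000 UMIs (median 13.5). Across the members, these shares correlated with those of MT2A (Spearman rho 0.62), MT1X (0.52), MT1M (0.47), MT1F (0.42) and MT1E (0.29), and those of HMOX1 (0.16) and SELENOP (-0.01) less. The points share libraries and depth, and the MT1G and MT1H share itself correlated at -0.28 with depth.

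**Figure D2:**
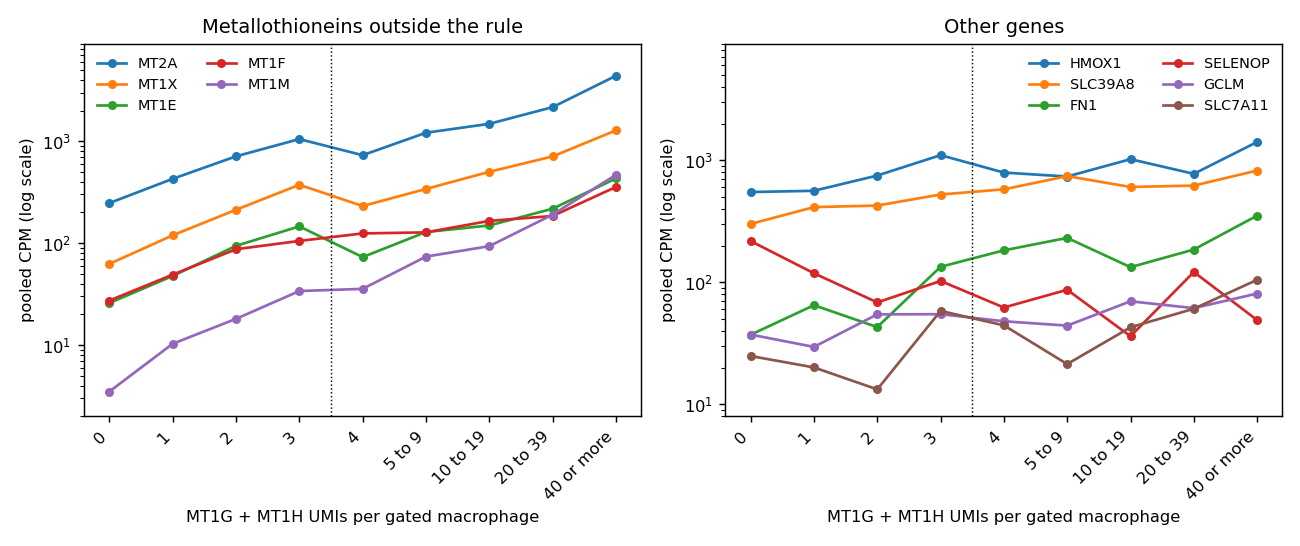
Pooled CPM (log scale) in gated macrophages binned by MT1G + MT1H UMIs per cell, with the limit of the rule as a dotted line. MT2A climbs from 247 CPM at 0 UMIs to 4385 at 40 or more with a dip from 1049 to 729 across the limit, while HMOX1 (550 CPM at 0 UMIs, 1104 at 3, 776 at 20 to 39 and 1416 at 40 or more) and SELENOP (218, 103, 122 and 49.1 CPM in the same bins) follow no steady course.

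The share of cells with MT1G was compared at equal depth. When cells were thinned to 3000 UMIs, leaving out shallower ones, 587 of the 608 members, 4814 of the 5448 MT-low macrophages, 1207 of 1436 monocyte-gated cells and 2987 of 3238 T-gated cells were used. MT1G was seen in 81.6% of these MT1G-high macrophages (99.3% unthinned), which the rule fixes. It was seen in 4.18% of MT-low macrophages (11.4% unthinned), a share that the rule limits as well. Outside the rule, it was seen in 5.47% of monocyte-gated cells (8.43% unthinned) and 0.870% of T-gated cells (2.22% unthinned). Median depths were 10333.5 UMIs in MT-low macrophages, 8151 in monocyte-gated and 7084 in T-gated cells. Free RNA in the droplets was not measured. Of the 8417 kept cells with at least 5 UMIs of the macrophage genes, 865 reached the MT1G and MT1H limit, and 608 were left after the hypoxia, cell cycle, T cell and keratin limits. MT2A, by contrast, was seen in 60.8% of thinned T-gated cells, 37.8% of MT-low macrophages and 88.2% of the members.

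Of the zinc transporters, the importer SLC39A8 was higher in the members in 13 of 14 mice, at 187 to 1264 CPM (median 524) against 192 to 609 (median 264), with a median log2 ratio of 0.77. The ranges overlapped across mice, and the gene was lower in the members of maraviroc 1 only. The exporter SLC30A1 was at 11.3 to 63.2 CPM against 18.8 to 36.3 and was higher in 11 of 14 mice (median log2 ratio 0.64). In reaction 2 it was higher in all 7 mice and in reaction 1 in 4 of 7. The transcript of MTF1 itself, the zinc sensor, was at 41.4 against 37.6 CPM on average and was higher in the members in 7 of 14 mice. SLC39A10, another importer, was lower in 12 of 14 mice, at a mean of 19.3 against 24.03 CPM. It passed the limit of 20 CPM through MT-low macrophages only, the set where it was high. Of the 9 measured genes of the metallothionein and zinc list outside the rule, 6 were higher and 1, SLC39A10, lower in at least 12 mice.

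The label of these cells also names SLC7A11, GCLM and FN1, and the data bore this out unevenly. SLC7A11 ranged from 0 to 181 CPM (median 41.6) in the members and from 6.26 to 51.8 (median 20.3) in MT-low macrophages. It was higher in the members of 9 mice and lower in those of untreated 2, untreated 5, maraviroc 3, maraviroc 5 and maraviroc 7, a median log2 ratio of 1.05 with a span from -1.41 to 2.87. GCLM, at 34.4 to 115 against 24.6 to 44.9 CPM, was higher in 12 of 14 mice (median log2 ratio 0.70). FN1 ranged from 3.13 to 681 CPM (median 147) against 4.84 to 115 (median 38.7). It was higher in 13 of 14 mice, with a median log2 ratio of 1.56, and in untreated 2 the members held a single UMI of it.

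UMIs of these genes were found in a minority of the members. A cell without a UMI may still express the gene. FN1 was seen in 128 of the 608 cells, and 10 cells held 57.2% of its 1976 UMIs. SLC7A11 was seen in 78 cells, and 10 cells held 48.1% of its 497 UMIs. GCLM, with 548 UMIs, was seen in 229 cells. Only 20 members held all of FN1, SLC7A11 and GCLM, and 294 held none of them. Across the members, the FN1 and SLC7A11 shares, which are 0 in most cells, had Spearman rho of 0.02 and 0.06 with those of MT1G and MT1H. Pooled by MT1G and MT1H UMIs, SLC7A11 was at 21.4 to 60.8 CPM and FN1 at 133 to 232 in the members with 4 to 39 UMIs, and at 105 and 353 CPM in those with 40 or more. After thinning to 3000 UMIs, FN1 was seen in 12.9% of the members, 4.18% of MT-low macrophages, 8.58% of GLUT1-gated macrophages (at least 4 UMIs of SLC2A1, HILPDA and ADM), 4.64% of monocyte-gated cells and 1.24% of T-gated cells. SLC7A11 was seen in 8.35% of the members and, in the same order, in 2.95%, 5.10%, 7.95% and 1.10% of the other cells, so its share in monocyte-gated cells was close to that in the members. The cells are therefore described here by the sum of MT1G and MT1H, which the rule sets, and not by these other genes. MT1G was seen in 604 of the members and MT1H in 506.

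**Figure D3:**
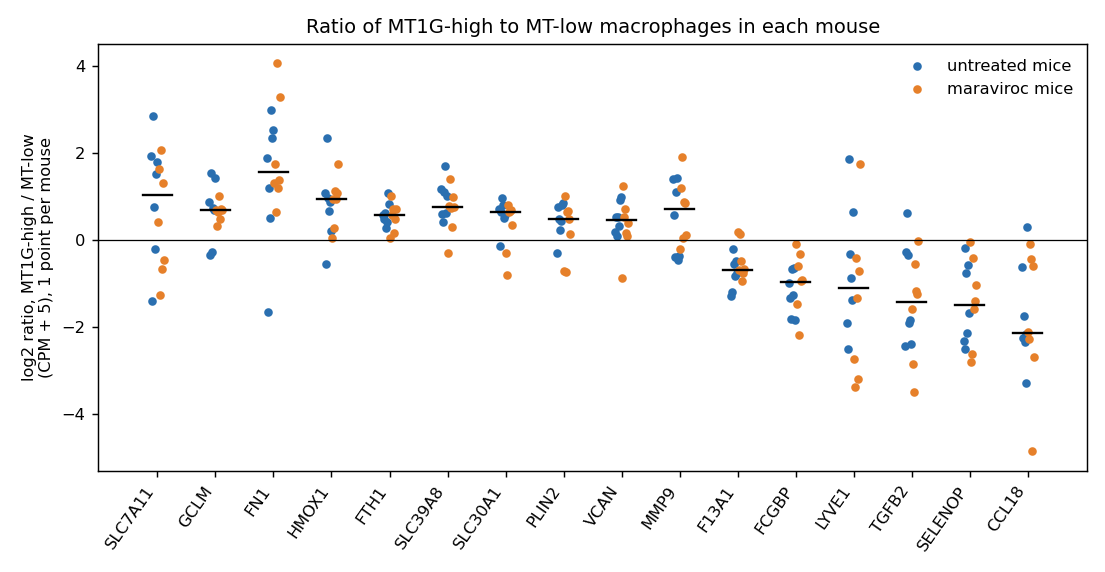
Log2 ratio of CPM + 5 in MT1G-high over MT-low macrophages in each of the 14 mice (blue, untreated; orange, maraviroc), with the median as a bar. SLC7A11 and FN1 spread over more than 4 log2 units between mice, FTH1 is above 0 in all 14 mice, and SELENOP and FCGBP are below 0 in all 14.

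Among the 19 measured genes of NRF2, glutathione and thioredoxin, 5 were higher and none lower in at least 12 mice, and the median log2 ratio of the list was 0.19. PGD, an enzyme of the NADPH-forming pentose phosphate pathway, was higher in all 14 mice, at 128 to 221 CPM against 113 to 142 (median log2 ratio 0.47). Peroxiredoxin 1 (PRDX1) was higher in 13 mice (0.40), and TALDO1, of the same pathway as PGD, in 12 (0.40). SQSTM1, the autophagy receptor p62, was higher in 12 mice (0.28). The transcript of NRF2 itself, NFE2L2, was at 406 against 432 CPM, and that of the catalytic ligase subunit GCLC at 24.8 against 24.2. The differences within this list were small beside those of the metallothioneins.

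HMOX1 and both ferritin chains were the heme and iron genes that were higher in at least 12 mice. HMOX1, which degrades heme, ranged from 527 to 3265 CPM (median 936) in the members and from 269 to 894 (median 583) in MT-low macrophages, and was higher in 13 of 14 mice (median log2 ratio 0.94, untreated 2 being the exception). The ferritin heavy chain FTH1, which stores iron, was higher in all 14 mice, at 8584 to 15341 against 5862 to 10935 CPM (median log2 ratio 0.57), and the light chain FTL in 13 (0.40). The iron exporter SLC40A1 (ferroportin) was lower in 12 mice, at a median of 95.2 against 216 CPM (-0.78). The transferrin receptor TFRC, which imports iron, was at 585 against 465 CPM on average and higher in 11 mice. Of the 13 measured genes of the list, 3 were higher and 1 lower in at least 12 mice, with a median log2 ratio of 0.08.

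Some lipid genes were higher in most mice. PLIN2, which coats lipid droplets, ranged from 233 to 757 CPM in the members and from 233 to 482 in MT-low macrophages, and was higher in 11 of 14 mice (median log2 ratio 0.48). In reaction 1 it was higher in 4 of 7 mice and in reaction 2 in all 7. The apolipoprotein gene APOC1 was higher in 12 mice (0.79), GPNMB in 13 (0.52), the cathepsin gene CTSD in 13 (0.48) and the galectin gene LGALS3 in 13 (0.41). The fatty acid transporter CD36 was at 163 against 155 CPM and higher in 7 of 14 mice. Of the 21 measured lipid genes 4 were higher and 1 lower in at least 12 mice (median 0.09).

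Matrix and repair genes went both ways. Besides FN1, the proteoglycan gene VCAN, a gene of monocytes, was higher in 13 mice, at 767 to 2756 against 751 to 2022 CPM (median log2 ratio 0.46), and the protease inhibitor TIMP1 in 12 (0.43). The gelatinase MMP9 was higher in 10 of 14 mice (0.72), with a median log2 ratio of 1.11 in reaction 1 and 0.12 in reaction 2. CCL18, a chemokine of alternatively activated macrophages, was lower in 13 mice, at 7.16 to 126 (median 30.9) against 13.8 to 367 CPM (median 118), a median log2 ratio of -2.14. TGFB2 was lower in 13 mice (-1.42), the transglutaminase F13A1 in 12 (-0.69), the urokinase PLAU in 12 (-0.57) and the membrane metalloproteinase MMP14 in 12 (-0.39). The osteopontin gene SPP1 was at 9581 against 9642 CPM and higher in 7 of 14 mice. In all, 3 of 25 measured genes were higher and 5 lower in at least 12 mice, with a median of 0.05.

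Of the 15 measured genes of resident and C1Q macrophages, 9 were lower and none was higher in at least 12 mice. The median log2 ratio of the list was -0.29. SELENOP, a secreted selenium carrier, was lower in all 14 mice, at 14.3 to 213 CPM (median 70.8) against 92.5 to 346 (median 216), with a median log2 ratio of -1.50. The median was -2.34 in reaction 1 and -1.41 in reaction 2. The scavenger receptors STAB1 and MRC1 were lower in 13 mice each (-0.50 and -0.30), and the transcription factor MAF in 12 (-0.29). LYVE1, a marker of perivascular macrophages, was lower in 11 mice (-1.11), but its mean level was 34.5 against 35.3 CPM, and it was higher in the members of untreated 3, untreated 7 and maraviroc 7. CSF1R, the M-CSF receptor, was at 250 against 269 CPM and lower in 10 mice.

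Genes of the MHC class II list, which holds CIITA, CD80 and CD86 beside antigen-presenting genes, were lower by a small amount. All 12 measured genes of the list had a median log2 ratio below 0, 8 were lower in at least 12 mice, and the median over the list was -0.22. The 4 markers of cDC2 dendritic cells, which also carry these genes, summed to a median of 32.3 CPM in the members and 73.6 in MT-low macrophages, led by CLEC10A at 24.6 pooled CPM in the members. All 4 were detected, and their part in the MHC class II ratios was not tested. HLA-DQB1 was lower in 13 mice (-0.61), the co-stimulatory receptor ligand CD86 in 13 (-0.38), and the invariant chain CD74 in 13, at 2234 to 4622 against 3551 to 4620 CPM (-0.19). FCGBP, a mucin-like protein, was lower in all 14 mice, at 53.8 to 477 CPM (median 125) against 69.0 to 1094 (median 253). Of the 6 genes lower in every mouse and at least 2-fold lower in the median mouse, ALPK3, AUTS2, ANK2 and ST5 were at 42.0 CPM or less on average in MT-low macrophages, and NFATC2, a calcium-regulated transcription factor, at 66.2. ALPK3 was at 0 to 38.2 CPM in the members against 14.7 to 58.4.

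The remaining lists moved little. Among 10 measured genes of the integrated stress response none was higher or lower in at least 12 mice (median -0.07), with ATF4 at 60.2 against 60.9 CPM. Of 11 heat shock genes, only HSPA6 was lower in at least 12 mice (median of the list -0.26). Glycolytic enzymes were higher by small amounts, GAPDH in all 14 mice (0.35), ENO1 and PGK1 in 13 (0.29 and 0.15) and LDHA and TPI1 in 12 (0.34 and 0.27). These were the only 5 of the 19 measured hypoxia and glycolysis genes that were higher in at least 12 mice, and none was lower (median of the list 0.13). Both sets were held to at most 3 UMIs of SLC2A1, HILPDA and ADM, so the rule itself limits hypoxia differences between them. Of 18 interferon genes only IL4I1 was higher in at least 12 mice (0.41), and of 19 inflammatory genes the chemokines CXCL2 (0.36, 13 mice) and CXCL3 (0.57, 12 mice). Of 16 lysosomal genes 3 were higher and 1 lower.

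A further 12 genes were higher in all 14 mice without reaching 2-fold in the median mouse. The aquaglyceroporin AQP9, a gene of monocytes and neutrophils, had the highest ratio among them, at 70.9 to 189 against 36.1 to 116 CPM (median log2 ratio 0.84). It was at 203 CPM in monocyte-gated cells. The cysteine protease inhibitor CSTB followed (0.59), then FTH1 and the lipoprotein-associated phospholipase PLA2G7 (0.52). All were at less than 2-fold.

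Markers of macrophages and of other lineages were summed in both sets. The 10 macrophage markers, 6 of them used by the rule, summed to a median of 5894 CPM per mouse in the members and 5965 in MT-low macrophages, with C1QA the most abundant. Both sets had to reach the same limit on those 6 genes, so these sums describe the choice of cells. The 14 monocyte markers summed to 12205 against 10897 CPM, led by S100A9. All 14 were detected, and 1 was higher and none lower in at least 12 mice. The 7 T cell markers, 3 of them limited by the rule, summed to 292 against 242 CPM, led by IL7R at 283 pooled CPM, which 474 of the 608 members held. The 7 NK cell markers summed to 66.0 against 199 CPM. The 10 carcinoma markers, 2 of them limited by the rule, summed to 73.2 against 78.8 CPM, led by AXL at 31.9 pooled CPM. Of the 2 outside the rule with a mean of at least 20 CPM in either set, 1 was higher and 1 lower in at least 12 mice. The keratin KRT7 was higher in the members in 6 of 7 mice of each reaction. It had 259 UMIs in 69 members, 58.3% of them in 10 cells. The 4 cDC1 markers summed to 4.34 against 7.53 CPM, the 4 of mature dendritic cells to 53.9 against 70.5 and the 4 of plasmacytoid dendritic cells, led by TCF4, to 456 against 490. The 5 mast cell markers had a median of 1.32 CPM but reached 267 in a single mouse, and TPSAB1 was seen in 3 of all members. All 5 hemoglobin genes were at 0 in the members. The part of such transcripts in the ratios was not tested. No doublet caller was run, and cells with UMIs of a second lineage were limited only by the rule and the hashtag limit.

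The hypoxic GLUT1-gated macrophages, which met the same limits except that SLC2A1, HILPDA and ADM reached at least 4 UMIs and MT1G and MT1H at most 3, also held much HMOX1 and PLIN2. They numbered 440 cells, with a median of 12015 UMIs. PLIN2 was at 1941 CPM ± 476 (SD, n = 14 mice) in them and at 477 ± 161 in MT1G-high macrophages, lower in the members of all 14 mice (median log2 ratio -1.94). HMOX1 was at 1715 ± 519 against 1117 ± 686 CPM and was lower in the members of 12 mice (-0.59). MT-low macrophages stood below both sets on average, with 361 ± 77.0 CPM of PLIN2 and 575 ± 162 of HMOX1. The hypoxia targets NDRG1, HK2 and P4HA1 were lower in the members of all 14 mice (-2.20, -2.35 and -2.32), and so were GPNMB (-1.54), SPP1 (-0.86) and the neutrophil chemokine CXCL8 (-1.13).

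MT2A, MT1X, MT1M, MT1E and MT1F were each higher in MT1G-high than in GLUT1-gated macrophages in all 14 mice, with median log2 ratios of 1.99 to 3.82. PRDX1 was also higher in all 14 (0.87). SLC39A8 and SLC30A1 were higher in 12 (1.50 and 0.83), FN1 in 11 (1.42), and SLC7A11 and GCLM in 9 each (0.46 and 0.09). MT3, the metallothionein of neurons, went the other way, with 0.7 pooled CPM in the members and 9.6 in GLUT1-gated macrophages. Both sets were chosen on measured genes, so these are descriptions too.

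A group of 73 cells exceeded both limits and belonged to neither set. Their pooled HMOX1 was 2487 CPM (95% exact Poisson interval 2400 to 2578), above the 1006 (985 to 1027) of the members and the 1719 (1685 to 1753) of GLUT1-gated macrophages. Pooled SLC7A11 was at 256 CPM in them against 57.9 and 54.0, GCLM at 147 against 63.9 and 56.6, and FN1 at 438 against 230 and 109. SELENOP was at 28.8 against 68.2 and 155.6 CPM. The intervals cover counting error only, and just 2 mice had at least 10 such cells, so no comparison over mice was made.

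MT1G-high macrophages were found in every mouse, from 20 cells in maraviroc 1 to 120 in maraviroc 6. They made up 5.87% to 22.02% of the gated macrophages of untreated mice (median 7.90%) and 3.67% to 20.5% of those of treated mice (median 8.03%). The shares of untreated 1 (20.6%), untreated 5 (22.02%) and maraviroc 6 (20.5%) stood well above those of the other 11 mice, which lay between 3.67% and 11.6%. The treatments overlapped. The means were 11.5% ± 6.81 (SD, n = 7) and 9.20% ± 5.63 (SD, n = 7), a difference of -2.28 percentage points that was smaller than the spread between mice (two-sided exact permutation test, p = 0.504).

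As a share of all kept cells the means were 4.11% ± 1.85 without and 3.31% ± 2.37 with maraviroc, a difference of -0.798 points (two-sided exact permutation test, n = 7 and 7, p = 0.501). Without maraviroc 6 the difference was -1.68 points (exact permutation test, p = 0.0309), so this comparison depends on that mouse. Within reaction 1 the difference was -1.82 points (exact permutation test, 4 against 3 mice, p = 0.171) and within reaction 2 -0.115 points (3 against 4 mice, exact permutation test, p = 0.943). The smallest p that 4 against 3 mice can give is 0.0286.

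By mouse, the members were 3.67% to 20.6% of the gated macrophages in reaction 1 and 6.82% to 22.02% in reaction 2, which overlapped. Over all cells of a reaction, 7.70% of the gated macrophages of reaction 1 were members (exact binomial 95% interval 6.76% to 8.73%) and 12.2% of those of reaction 2 (11.1% to 13.4%). With the rule applied after thinning kept cells to 3000 UMIs, these shares were 5.53% (4.62% to 6.56%) and 6.50% (5.61% to 7.49%). The intervals are over cells of 1 library each and cover counting error only, so they compare the libraries. Thinning left out 960 shallower cells of untreated and 999 of maraviroc-treated mice in reaction 1, against 100 and 210 in reaction 2. The thinned shares of gated macrophages were 7.36% ± 5.36 without and 5.52% ± 2.90 with maraviroc (exact permutation test, n = 7 and 7, p = 0.418).

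**Figure D4:**
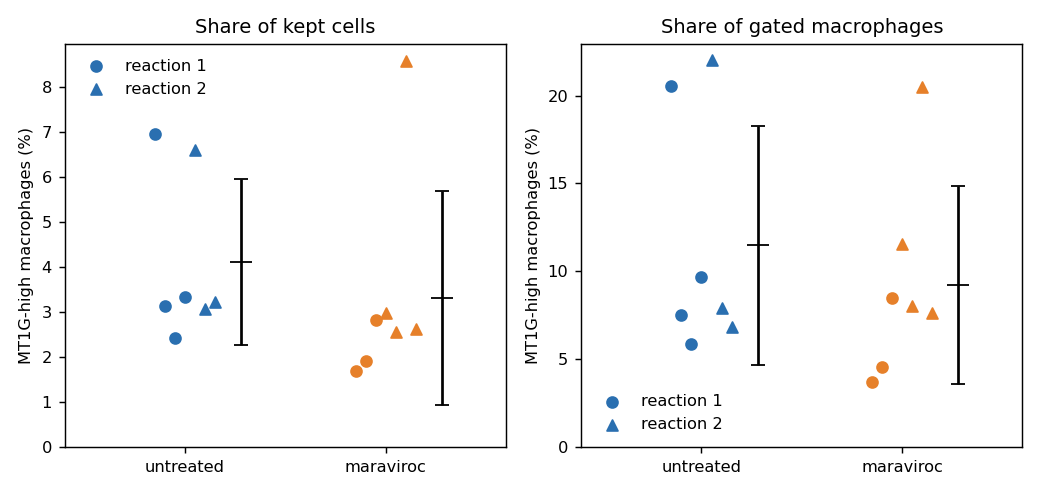
Share of MT1G-high macrophages among kept cells (left) and gated macrophages (right) in each mouse, in percent, circles for reaction 1 and triangles for reaction 2, with mean and SD beside the points. The treatments overlap, and untreated 1, untreated 5 and maraviroc 6 are the highest mice in both panels.

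Maraviroc was compared with no treatment within the members, on UMI counts summed over the members of each mouse. Of 6120 genes tested with the edgeR quasi-likelihood test, 0 (0%) had an adjusted p under 0.05, and 267 (4.36%) had an unadjusted p under 0.05, with 165 (2.7%) higher and 102 (1.67%) lower in maraviroc-treated mice. DESeq2 called 1 gene, TPRG1. The values below are CPM over the tested genes with the normalisation factors of that fit.

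TPRG1 (ENSG00000188001) had the lowest p. It was at 58.8 to 263 CPM (median 187) in untreated mice and at 13.9 to 123 (median 70.4) in maraviroc-treated mice. All 7 treated mice were below the untreated median, but untreated 3, at 58.8, lay within the range of the treated mice. The log2 fold change was -1.34 ± 0.27 (SE, back-calculated from the test statistic). Its adjusted p was 0.460 by edgeR and 0.0218 by DESeq2. TREM2, a lipid-sensing receptor of tumor macrophages, was at 40.3 to 232 CPM (median 116) in untreated and 38.8 to 76.5 (median 51.8) in treated mice, a log2 fold change of -1.07 ± 0.28 (adjusted p = 0.946, edgeR). Its within-reaction log2 fold changes were -1.40 and -0.46. Only untreated 5, at 40.3, lay within the range of the treated mice.

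CD84, an adhesion receptor of the SLAM family, was at 113 to 172 CPM in untreated and 78.3 to 111 in treated mice. Its log2 fold change was -0.52 ± 0.13 (adjusted p = 0.946, edgeR). These ranges did not overlap, but the gene was picked for its low p. How many of all tested genes separate in this way was not counted. The transcription factor CREB5 was at 128 to 198 CPM (median 152) in untreated and 138 to 350 (median 311) in treated mice, 6 of them above the untreated median (0.76 ± 0.18). BAG3, a co-chaperone of HSP70, was at a mean of 36.5 ± 13.9 against 82.7 ± 42.9 CPM (1.05 ± 0.28), with log2 fold changes of 1.78 in reaction 1 and 0.58 in reaction 2. CTTNBP2NL was at 72.1 ± 17.7 against 113.9 ± 33.99 CPM (0.68 ± 0.19). None of these passed the adjustment.

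The metallothioneins of the members overlapped between the treatments. MT2A was at 1449 to 3515 CPM (median 2127) in untreated and at 1769 to 2640 (median 2295) in treated mice, a log2 fold change of -0.03 ± 0.16. MT1X was at 604 to 1049 (median 784) and at 515 to 730 (median 628) CPM, with all treated mice below the untreated median but overlapping ranges (-0.29 ± 0.13, unadjusted p = 0.0400 and adjusted p = 0.999, edgeR). Of the 8 tested genes of the metallothionein and zinc list, none passed the adjustment, all 8 had a log2 fold change below 0, and the median was -0.17 beside -0.00 over all genes tested. Other lists also went mostly to one side. Of 17 tested inflammatory genes 0 were higher (median -0.19), and of 12 genes of the MHC class II list 11 were higher (0.15). Of 13 heme and iron genes 3 were higher (-0.11). Of 20 lipid genes 5 were higher (-0.14), with 1 higher and 4 lower at an unadjusted p under 0.05 (edgeR). Of 11 heat shock genes 5 were higher (-0.15), with 3 higher and 1 lower at that limit. Over all genes tested, 2.7% were higher and 1.67% lower at it. The lists were not tested as sets. SLC7A11, GCLM and FN1 had log2 fold changes of -0.16 ± 0.53, -0.12 ± 0.24 and 0.07 ± 0.52, each smaller than its error. Within reaction 1 and reaction 2 they were -1.82 and 0.13 for SLC7A11, -0.26 and -0.16 for GCLM, and -0.48 and 0.10 for FN1. No gene of any of the 15 lists passed the adjustment.

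**Figure D5:**
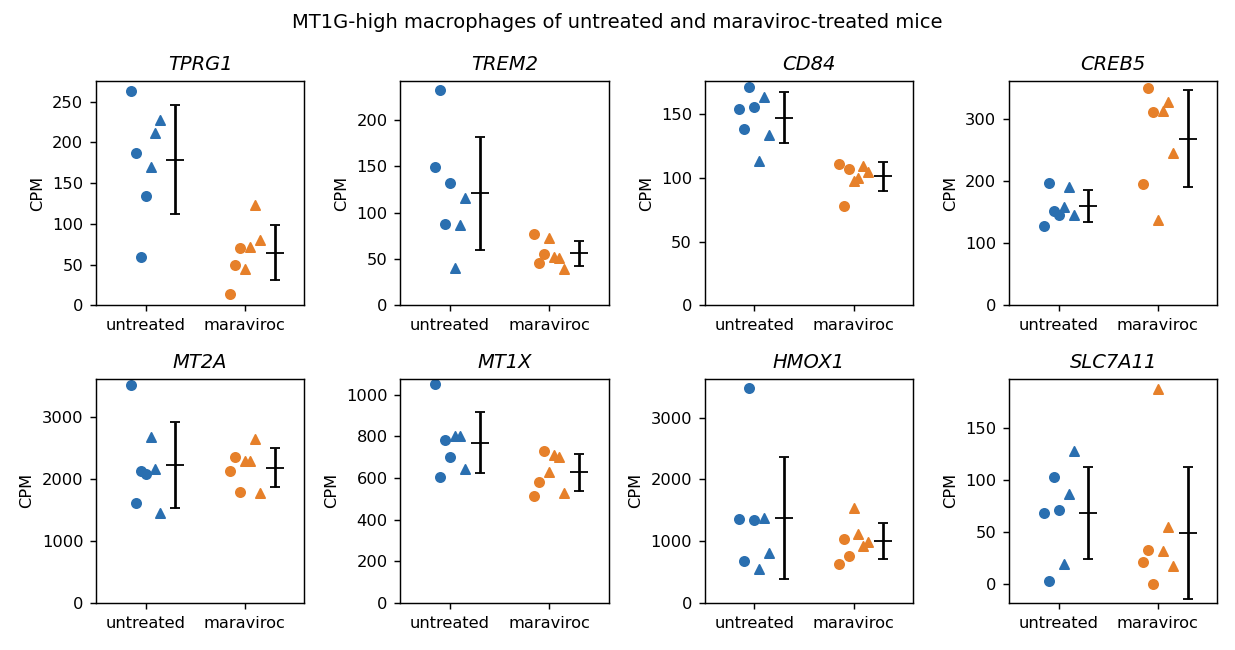
CPM per mouse in MT1G-high macrophages for 8 genes, circles for reaction 1 and triangles for reaction 2, with mean and SD (n = 7 per treatment) beside the points. TPRG1, TREM2 and CD84 are lower and CREB5 higher on average in maraviroc-treated mice, without passing adjustment in edgeR, and MT2A, HMOX1 and SLC7A11 overlap widely.

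Stress, lipid and inflammatory genes of the members were compared as well. HMOX1 was at 555 to 3475 CPM (median 1344) in untreated and 633 to 1538 (median 993) in treated mice (-0.43 ± 0.30). Its log2 fold change was -1.07 in reaction 1 and 0.33 in reaction 2, with an unadjusted p of 0.0252 and an adjusted p of 0.884 for that difference (edgeR, treatment by reaction). PLIN2 was at 557 ± 188 and 457 ± 158 CPM (-0.26 ± 0.22) and TFRC at 637 ± 262 and 604 ± 280 (-0.05 ± 0.31). The fatty acid-binding protein FABP5 was at 270 ± 133 and 188 ± 89.5 CPM (-0.53 ± 0.27), and GPNMB at 197 ± 75.6 and 160 ± 56.7 (-0.33 ± 0.24). None passed, each with an adjusted p of 0.999 (edgeR). The interferon-induced chemokine CXCL10 was at 221 to 1417 CPM (median 341) in untreated and 252 to 931 (median 619) in treated mice, with means of 588.30 and 567.99 CPM (-0.07 ± 0.37). Its log2 fold change was 0.63 in reaction 1 and -0.65 in reaction 2.

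IL1B, the inflammatory cytokine, was at 247 to 1977 CPM (median 652) in untreated and 83.5 to 694 (median 507) in treated mice (-0.76 ± 0.37). Its log2 fold change was -1.84 in reaction 1 and 0.55 in reaction 2. The test of that difference between reactions gave an unadjusted p of 0.000635 and an adjusted p of 0.628 (edgeR, treatment by reaction, all genes). Over all 6120 genes, 0 treatment effects differed between reactions after adjustment and 342 before it. The difference between members and MT-low macrophages was also tested for a change with treatment, and 0 of 10866 genes passed, with 354 at an unadjusted p under 0.05 and a lowest adjusted p of 0.9999 (edgeR, set by treatment).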

How the data were processed

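The authors sorted human CD45+ cells, prepared droplet 3′ libraries and deposited, per reaction, a table of raw UMI counts per barcode for 36601 genes of GRCh38 and 7 hashtags, which Cell Ranger 9.0.1 produced. GEO's labels list mouse as the organism, while the counted genes are human. The study assigned cells with HTODemux in Seurat 5.1.0, whereas here a barcode took its top hashtag. The members and gene lists were chosen with earlier results of these data known. Genes named against MT-low macrophages were the 15 highest and 15 lowest median ratios among those moving the same way in every mouse and the 3 largest of each list, and, between treatments, the 6 lowest p-values and 14 fixed genes, with further list members chosen after their values were seen. Sums per mouse, all with at least 10 members, were tested with edgeR 4.0.16 (TMM, filterByExpr, quasi-likelihood, Benjamini-Hochberg) in R 4.3.3, with DESeq2 1.42.0 as an alternative. The SE of an edgeR log2 fold change was taken as its absolute value over the square root of the quasi-likelihood F statistic. Shares were compared by exact permutation of mice (scipy 1.17.1, Python 3.11.15). Intervals are 95% exact and cover counting error only, and the depth of a mouse's members (155175 to 1925005 UMIs) limits low genes. Genes with duplicated symbols (20) were left out, as was a list of Y-linked genes with XIST and TSIX, and some genes are not reported here. No human reference was used, so no coordinates or sequences are given. The steps were also run on simulated data, where the share of false calls between treatments was above the threshold of 0.05.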

Additional observations from a re-analysis of the deposited data

Results flagged for a closer look

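In 6 of 42 groups of 7 mice checked, a single mouse lay far from the others. A chance rate of about 1 in 20 is nominal and was not measured here. The groups share mice and are not independent. HMOX1 in the members of untreated 3 was 3475 CPM, and FABP5 in those of untreated 1 was 566 CPM. The members were 8.58% of the kept cells of maraviroc 6, the highest of the maraviroc-treated mice. CD84 was 78.3 CPM in maraviroc 2, the lowest of its group. In maraviroc 4, SLC7A11 was 187 CPM and FN1 was 702 CPM, both the highest of the maraviroc-treated mice.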

How the results depend on the processing

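The share of members among gated macrophages differed by -5.34 to -0.316 points between treatments under all 25 alternatives, none of which passed the threshold. The share among kept cells ranged from -1.68 to -0.324 points when each mouse was left out in turn, and passed the threshold only without maraviroc 6 (exact permutation test, p = 0.0309). The count of genes with an adjusted p under 0.05 between treatments, 0 with edgeR, was 2 with all genes of at least 1 count (TPRG1 and AC099489.1), 1 with a top hashtag of at least 80% (TPRG1), 1 with DESeq2 (TPRG1), and 0 to 1 when each mouse was left out (TPRG1 without untreated 3 or without maraviroc 6). The count at an unadjusted p under 0.05 was 1187 with all genes of at least 1 count, where 21206 genes were tested in place of 6120. Genes higher than in MT-low macrophages in every mouse, and at least 2-fold in the median mouse, numbered 5 or 6 in the 15 alternatives that kept these limits, and 7 when at least 12 mice sufficed. The 6 genes lower by the same limits became 2 with MT1G and MT1H of at least 3 UMIs, 3 with at least 8, 1 with a pseudocount of 20 CPM, 2 with a mean of at least 50 CPM, 11 in cells of 5000 to 15000 UMIs, 14 in reaction 1 by itself, 14 in reaction 2 by itself, and 21 when at least 12 mice sufficed, an alternative chosen after seeing the data. The reactions by themselves hold fewer mice that must move the same way. The cells of 5000 to 15000 UMIs came from 12 mice only, so both depth and the number of mice changed there. The cause of the other changes was not tested. FN1 (1.20 to 2.54), SLC7A11 (0.76 to 1.33), GCLM (0.55 to 0.89), HMOX1 (0.91 to 1.004) and PLIN2 (0.24 to 0.65) kept a median log2 ratio above 0 in all 15 alternatives. No paired analysis was possible because the labels give the mice no numbers shared between treatments. Depth limits low genes, and the limit of 4 UMIs is reached more easily in deep cells.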
